A study of Mus musculus with 8 samples.

Results

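The cytoplasmic ribosomal protein genes encode the protein subunits of the ribosome, which translates messenger RNA in the cytosol. They were taken as every gene symbol that is Rpl (large subunit) or Rps (small subunit) with a number, plus Rplp0, Rplp1, Rplp2 and Rpsa, without the Rps6k kinases, where a probe set carried that symbol alone. The rule found 49 genes, 26 of the large and 23 of the small subunit, out of 18193 genes with such a probe set. These 49 genes had 105 probe sets, and the probe set with the highest mean signal over 8 arrays stood for each gene. A further 28 ribosomal protein symbols, Rplp1 among them, appeared only on probe sets that carry several symbols and were not analysed by name.

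RNA of 8 clones of mouse iPS cells (induced pluripotent stem cells) was hybridised to Affymetrix 3'-IVT mouse arrays, with a single array for each clone, to ask what ascorbic acid (vitamin C) in the medium changes. All 8 clones came from embryonic fibroblasts (MEFs) of Col-OKSM reprogrammable mice, in which doxycycline switches on Oct4, Sox2, Klf4 and cMyc. The medium held serum, LIF and doxycycline in both groups, and ascorbic acid was added for 4 clones and left out for 4. The clones grew on irradiated MEF feeder cells, which preplating removed ahead of RNA extraction. The labels call the 4 clones of a group biological replicates and do not say whether they came from separate embryos, so a p-value here reflects only how these clones vary.

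Array median signals lay between 134 and 156, and the 3' over 5' ratio for actin between 1.14 and 1.28. All 10 iPS cell markers that were listed, such as Pou5f1 and Nanog, were well above the dim limit, with a lowest mean signal of 3985. Of 30 fibroblast and feeder markers 29 had a probe set and 25 lay above the dim limit. Their summed signal was 38770 to 47257 in clones with ascorbic acid and 44019 to 47562 in clones without. With ascorbic acid 20 of these 25 were lower (median log2 difference -0.16, and -0.15 after quantile normalization), and 5 of the 25, 4 of them lower, had an unadjusted limma p under 0.05, against 5.8% of all tested genes. All 10 iPS cell markers were lower as deposited (median -0.12; 9 of 10 and -0.07 after quantile normalization), with 0 at that p. As deposited 51.3% of all tested genes were lower. Of 172 genes other than ribosomal protein genes with a mean signal above 10000 it was 91.3%. Both marker lists thus shifted in the direction of the ribosomal protein genes below, and their part in that result was not tested. In bulk RNA, fewer cells of a type and less RNA per cell cannot be told apart.

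A ribosome holds 1 copy of most of its proteins, so cells make the subunits in balanced amounts. Their messenger RNAs are among the most abundant of a growing cell, and most start with a run of pyrimidines, the 5' terminal oligopyrimidine tract, through which the mTOR pathway controls their translation. Mammalian genomes carry many processed copies of these genes, and several have expressed paralogs with tissue-restricted use.

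The start regions of 4 genes are shown because these genes carry the results below. Rps18 and Rpl4 stand for the bright genes that moved together, and Rpl39l, shown with its partner Rpl39, is the member with the smallest p-value. Each sequence covers 50 bases before and 10 after the annotated start in RefSeq's GRCm38.p6 table, 5' to 3' on the gene's strand, with the longest run of C and T in capitals.
Rps18 (chr17:33955656-33955715, minus strand): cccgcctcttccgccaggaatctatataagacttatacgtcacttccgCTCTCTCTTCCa
Rpl4 (chr9:64173337-64173396, plus strand): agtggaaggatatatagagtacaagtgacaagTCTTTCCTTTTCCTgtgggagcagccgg
Rpl39 (chrX:37085213-37085272, minus strand): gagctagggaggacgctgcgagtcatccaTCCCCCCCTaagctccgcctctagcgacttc
Rpl39l (chr16:10170178-10170237, plus strand): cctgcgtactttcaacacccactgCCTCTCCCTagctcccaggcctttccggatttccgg
The run of Rps18, 11 bases long, spans the annotated start, and that of Rpl4, 14 bases long, begins 18 bases before it. Of the 49 genes 43 had an entry in that table, with 51 start regions. A run of at least 7 C or T bases between 20 bases before and 10 after the start was present on the gene's strand in 24 of these 51 (47.1%), against 19.2% of all 32851 start regions. On the other strand the shares were 5.88% and 19.95%.

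Most ribosomal protein genes read at the top of the array's signal range. Of the 49 genes 37 had a mean signal above 10000, a limit chosen after the values were seen, and 10 more lay between there and the dim limit of 93.7. The brightest probe set on each of the 8 arrays belonged to Rps18, a protein of the small subunit's head. Between 36 and 37 of the 49 probe sets were among the 450 brightest (1%) on an array. Signals of different probe sets are not on a common scale of RNA abundance, so this order is one of probe sets.

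The top of the range differed between arrays, and the highest signals did not stop at a shared value. The highest signal was 25727, 28943, 34576 and 27372 in clones 1 to 4 with ascorbic acid, and 32941, 28572, 34869 and 35871 in clones 1 to 4 without. The ratio of the highest to the 100th highest signal lay between 1.44 and 1.52 on all arrays. The deposited values were scaled to a trimmed mean of 500 on each array, which leaves out the brightest and dimmest 2% of probe sets. A limit shared by the arrays before this scaling would differ between arrays after it, so these signals cannot show whether there was one. Saturation of single array features cannot be read from signals already combined over a probe set.

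The bright ribosomal protein genes rose and fell together from clone to clone. Clone 4 without ascorbic acid gave the highest of the 8 signals in 33 of the 37 genes, and clone 1 with ascorbic acid gave the lowest in 32. Expressed as the log2 deviation from a gene's own mean over 8 clones, the median over the 37 genes was -0.30, -0.04, 0.15 and -0.20 in clones 1 to 4 with ascorbic acid. In clones 1 to 4 without it was 0.11, -0.15, 0.16 and 0.26. Both groups thus held clones above and below the mean, and their ranges overlapped. The highest and lowest clone differed 1.47-fold, and the group means of these clone medians were -0.10 ± 0.20 and 0.09 ± 0.17 (SD, n = 4 each). The median Pearson correlation between 2 bright members over the 8 clones was 0.97, from -0.71 to 1.00, across genes that share the same arrays and their scaling. That median was -0.04 after quantile normalization, and 0.85 with each array shifted by its other bright genes.

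**Figure D1:**
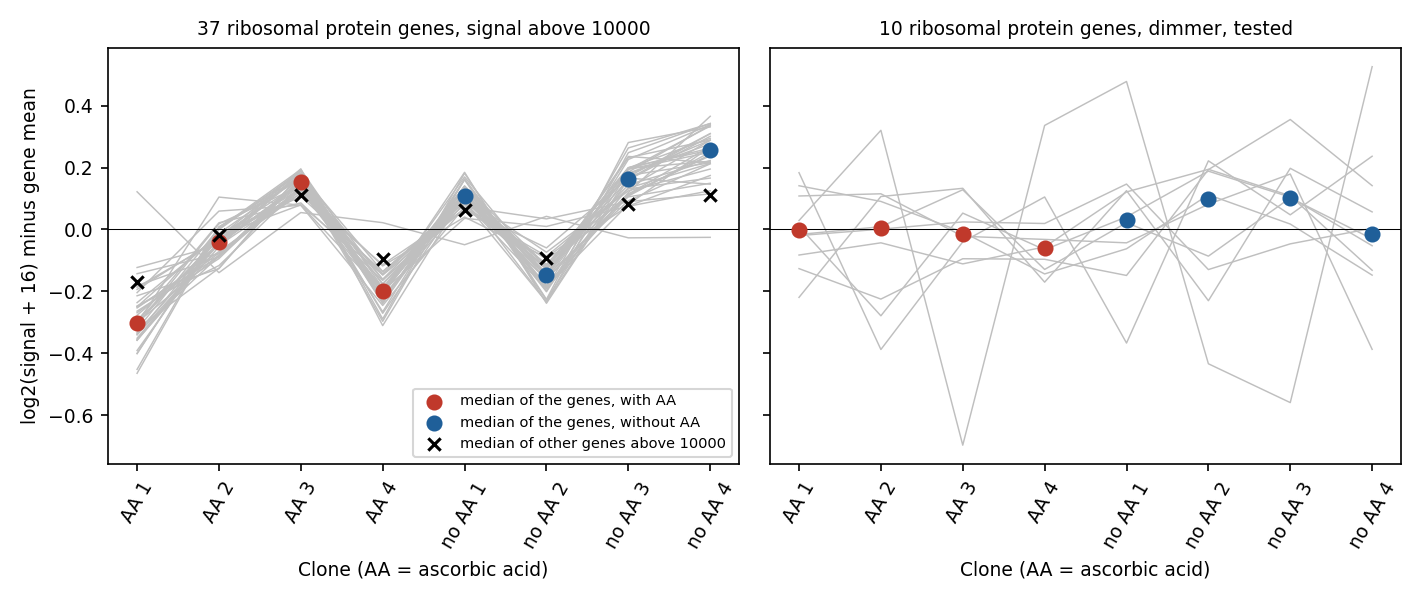
The vertical axis is the log2 deviation of a gene's signal from its own mean over 8 clones, and the horizontal axis gives the clones (AA, ascorbic acid). Grey lines are single genes, joined only to follow a gene, coloured dots are medians over the genes and crosses are medians over other genes above 10000. The 37 bright genes run from -0.30 in clone 1 with ascorbic acid to 0.26 in clone 4 without, and the medians of the 10 dimmer genes stay between -0.06 and 0.10.

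Other bright genes took the same course over the clones. The 172 other genes with a mean signal above 10000 had clone medians of -0.17, -0.02, 0.11 and -0.09 with ascorbic acid, and 0.06, -0.09, 0.08 and 0.11 without. Their correlation with the medians of the bright ribosomal protein genes was 0.99 over 8 clones, over shared arrays. Among genes above 20000 the range over the clones was 0.57 log2 for 28 ribosomal protein genes and 0.55 for 13 other genes. Between 10000 and 20000 it was 0.38 for 9 ribosomal protein genes and 0.28 for 159 others, and for 1099 other genes between 3000 and 10000 it was 0.11.

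Between the groups, 43 of 47 tested ribosomal protein genes had lower and 4 had higher signals with ascorbic acid, and none passed the test. The median difference was -0.18 log2, against -0.0041 over all 13125 tested genes, of which 51.3% were lower. Among the 172 other genes with a mean signal above 10000, 91.3% were lower, with a median of -0.09. Passing means an adjusted p under 0.05 in limma, adjusted by Benjamini-Hochberg over every tested gene. Of these genes 3 (0.0229%) passed, none of them a ribosomal protein gene. At an unadjusted limma p under 0.05 stood 1 of the 47, against 5.8% of all tested genes (2.74% lower, 3.06% higher). In 0 of the 47 were the groups without overlap, against 1.56% lower and 2.06% higher over all tested genes. The remaining 2 of the 49 genes, Rpl3l and Rps16, lay below the dim limit.

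The size of the difference moved with the scaling between arrays. Relative to all tested genes it moved only with quantile normalization, which also took most of the direction. After quantile normalization 26 of 47 were lower (55.3%), with a median of -0.012, where 49.5% of all tested genes were lower. That method gives the top ranks of every array the same values, so Rps18, the brightest on each, had no difference left by construction. With median centring 41 of 47 were lower (median -0.14), beside 39.9% of all genes (median 0.03). Median centring shifts every gene of an array by the same amount, so the members moved along with all genes. The same holds with each array shifted by its other bright genes, a setting added after the data were seen. There 39 of 47 were lower (median -0.09), beside 25.6% of all genes (median 0.08). In that last setting 15 of 47 had an unadjusted p under 0.05, against 6.17% of all genes. None passed the adjusted test there (limma, smallest adjusted p = 0.768). The other bright genes it uses lay mostly between 10000 and 20000, and most ribosomal protein genes above 20000. Above 20000 the median difference as deposited was -0.20 for 28 ribosomal protein genes and -0.19 for 13 other genes. Between 10000 and 20000 it was -0.16 for 9 and -0.08 for 159.

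**Figure D2:**
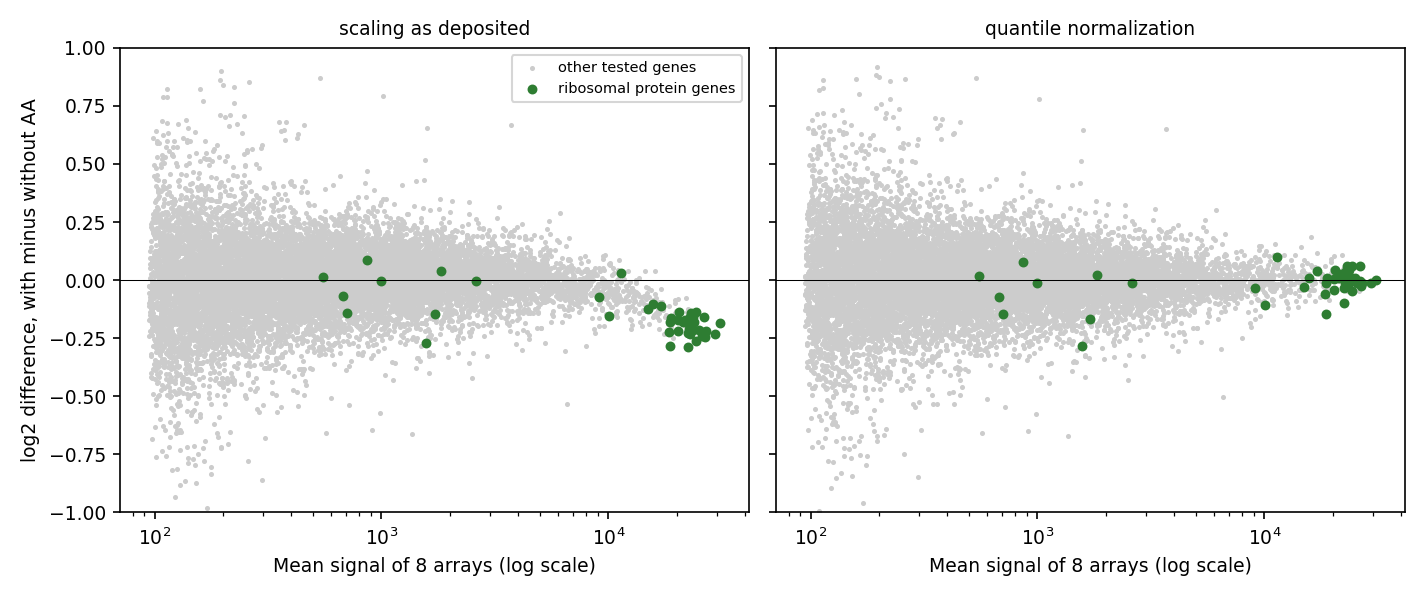
Each dot is a tested gene, with its mean signal over 8 arrays on a log scale and its log2 difference, with minus without ascorbic acid. Green dots are the 47 tested ribosomal protein genes, and 8 genes as deposited and 7 after quantile normalization lie outside the axis limits of -1 and 1. As deposited the brightest genes of both kinds lie below 0, and after quantile normalization they lie around 0.

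The count with an unadjusted limma p under 0.05 was 2 of 47 after quantile normalization (6.13% of all genes), 1 with median centring (4.96%), 2 with robust eBayes (5.71%) and 1 without the trend (5.65%). It was 4 with probe sets averaged per gene (5.56%), 3 of 42 without _s_at and _x_at probe sets (5.75%) and 8 with array weights (6.4%). A pseudocount of 1 (5.8%) or 64 (5.82%) gave 1, as did no filter on dim probe sets (5.62%), a 60% filter (6.37%) and the clone number as a replicate block (5.17%). All of these genes were lower with ascorbic acid. They made up 2.04% to 8.51% of the members, and 17.02% with array weights.

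Which clones entered also weighed on these counts. Without clone 3 with ascorbic acid 33 of 47 had an unadjusted limma p under 0.05, all lower, against 6.97% of all genes. Without clone 2 without ascorbic acid it was 29 of 47, all lower, against 7.33%. The medians were then -0.25 and -0.24, and 0 of 47 passed the adjusted test in either case. For the bright members these were the highest clone with ascorbic acid (median deviation 0.15) and the lowest without (-0.15). Leaving out either one widens the group difference by construction. The bright members moved together over the clones, so these are not counts of separate results. Leaving out clone 2 with ascorbic acid gave 2 of 47 (6.85%), clone 4 with gave 1 (5.06%), and clones 1, 3 and 4 without gave 1 (4.96%), 1 (5.24%) and 2 (5.36%). Leaving out clone 1 with ascorbic acid gave 1 (5.45%) and moved the median to -0.12. The summed feeder marker signal was 39598, 47257, 39302 and 38770 in clones 1 to 4 with ascorbic acid. In clones 1 to 4 without it was 47562, 46619, 45639 and 44019. Its relation to these counts was not tested.

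Bright small subunit genes were all lower with ascorbic acid, by log2 differences from -0.29 for Rps2 to -0.11 for Rps15, and none passed the test. For Rps18 the mean signal was 29155 ± 3845 with ascorbic acid and 33063 ± 3231 in the other group (SD, n = 4 each). Its log2 difference was -0.18 ± 0.11 (SE; limma, adjusted p = 0.843), and the groups overlapped. Rps29, a small zinc-binding protein of the small subunit, read 23067, 27420, 32558 and 25207 in clones 1 to 4 with ascorbic acid. It read 31683, 26805, 33406 and 34921 in clones 1 to 4 without. The groups overlapped, because clone 3 with ascorbic acid was high and clone 2 without was low, and the log2 difference was -0.23 ± 0.12 (SE).

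Rps28 (-0.24 ± 0.11) had the smallest unadjusted limma p of the bright genes, 0.0554, while Rps3a1 (-0.22 ± 0.11) and Rps14 (-0.21 ± 0.11) were close to it. The largest differences of all tested members in size were those of Rps2 and Rps26. Rps2, which lies near the mRNA entry of the small subunit, read 20147 ± 3886 with and 24511 ± 3757 without (SD, n = 4 each; log2 difference -0.29 ± 0.14, SE). Rps26, at the mRNA exit, read 16958 ± 3389 and 20567 ± 3342 (-0.28 ± 0.15). These genes also had the widest spread over clones among the bright genes, 1.73-fold for Rps2 and 1.74-fold for Rps26 between the highest and the lowest clone. None of these 5 genes passed the test, with an adjusted limma p of 0.843 for each.

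Large subunit genes gave the same picture. Rpl4, which lines the exit tunnel for the nascent chain, read 18300, 23664, 26638 and 19960 in clones 1 to 4 with ascorbic acid. It read 26841, 20913, 28079 and 30355 in clones 1 to 4 without. Clone 4 without was highest and clone 1 with lowest, as in most bright genes, and the log2 difference was -0.26 ± 0.13 (SE; limma, adjusted p = 0.843). Of the P stalk, which recruits the translation factors that hydrolyse GTP, Rplp0 had a log2 difference of -0.22 ± 0.11 and Rplp2 one of -0.16 ± 0.10 (SE). The exception among the 37 bright genes was Rpl37, named after its values were seen, the 1 gene that was not lower. Its signal was 11535 ± 868 with ascorbic acid and 11279 ± 314 in the other group (SD, n = 4 each). That is 0.03 ± 0.07 on the log2 scale (SE).

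The further probe sets of these genes were read alongside. Of all 105 probe sets 70 had a mean signal above 10000, and 68 of these were lower with ascorbic acid (median -0.18). Of the 28 between that level and the dim limit 21 were lower (median -0.09), and of the 7 below the dim limit 4. On the dimmest Rpl13a probe set the groups did not overlap, at 7849 ± 146 with and 7125 ± 67.9 without (SD, n = 4 each). It was higher with ascorbic acid by 0.14 log2, against -0.24 on the brightest Rpl13a probe set. Dim probe sets of Rpl41 and Rps18 also had groups without overlap, in the lower direction. Over all tested genes the groups did not overlap in 1.56% in the lower and 2.06% in the higher direction. These probe sets were picked from all those read here, so they are no result about the genes as a set. Probe sets that carry a ribosomal protein symbol beside others numbered 110. Of these 77 were above 10000, and all 77 were lower (median -0.18), measured on the same arrays.

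The 10 dimmer tested genes had no course over the clones in common. Their clone medians ran from -0.06 to 0.10, and 7 were lower and 3 higher with ascorbic acid (median -0.04). The median correlation between 2 of them over the 8 clones was -0.05. With the median of the bright members their correlations, over the same arrays, ran from -0.49 for Rps25 to 0.85 for Rpl22l1, the brightest of the 10, and 0.61 for Rpl7l1, the next. A dim probe set of such a gene, as for Rpl14 (552.7 ± 7.86 with and 549.1 ± 46.0 without, SD, n = 4 each), need not read the main transcript, which was not examined here. Rps6, the subunit that S6 kinases phosphorylate, read 884 ± 50.1 with and 841 ± 139 without (log2 difference 0.08 ± 0.11, SE).

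The smallest p of any member belonged to Rpl39l, a paralog of the X-linked exit tunnel protein Rpl39 that is known for its expression in male germ cells. Rpl39l read 1427, 1332, 1460 and 1458 in clones 1 to 4 with ascorbic acid. It read 1405, 1785, 1999 and 1722 in clones 1 to 4 without. The clones with ascorbic acid lay close together, and clone 1 without fell among them while the other 3 lay above. The log2 difference was -0.27 ± 0.09 (SE; limma, unadjusted p = 0.0124, adjusted p = 0.761). Over the alternatives the difference ran from -0.37 to -0.19 and the adjusted p from 0.489, without clone 1 without ascorbic acid, to 0.954.

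Rpl12, a protein at the base of the P stalk, was similar in form on the 1 probe set that carries its symbol alone. It read 1612, 1657, 1580 and 1642 in clones 1 to 4 with ascorbic acid, and 1859, 1956, 1843 and 1557 in clones 1 to 4 without. Clone 4 without was the lowest of all 8 and the other 3 without were the highest, so the groups overlapped. The log2 difference was -0.15 ± 0.07 (SE; limma, unadjusted p = 0.0626, adjusted p = 0.843).

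Rps27, a zinc-binding protein of the small subunit, varied most among the tested members. It read 962, 1182, 576 and 1195 in clones 1 to 4 with ascorbic acid, and 1320, 694, 635 and 1365 in clones 1 to 4 without. Clone 3 with and clones 2 and 3 without were low, and the other 5 clones were high in both groups. The highest clone was 2.37-fold above the lowest, and the group difference was -0.0056 ± 0.27 log2 (SE; limma, adjusted p = 0.998). Rpl39 read 763, 509, 651 and 722 with ascorbic acid and 516, 784, 693 and 793 without, in clones 1 to 4. Clone 2 with and clone 1 without were low there, so its low clones were not those of Rps27.

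**Figure D3:**
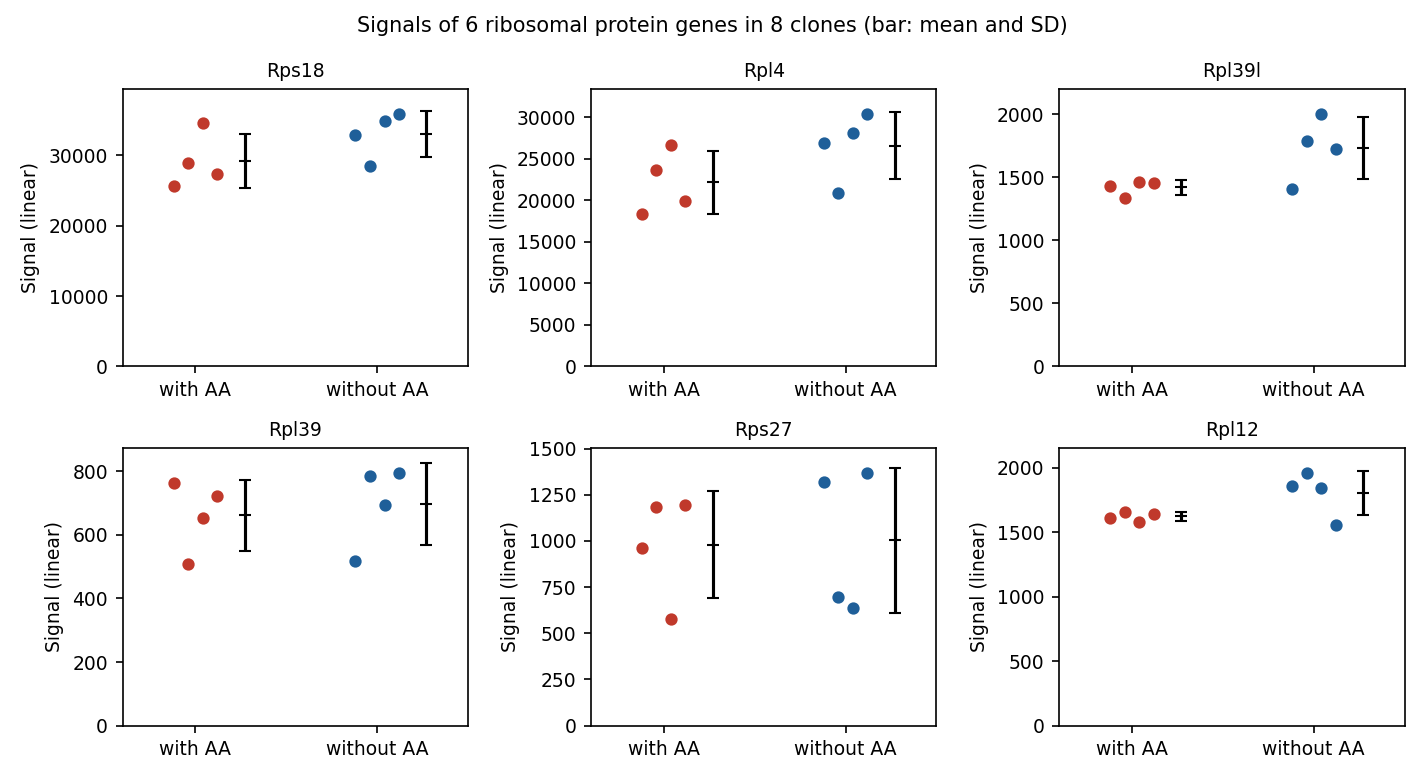
The vertical axis is the linear signal, starting at 0, for 6 genes in the 4 clones with and the 4 without ascorbic acid (AA). Dots are clones, in clone order from left to right, and bars show mean and SD. Rps18 and Rpl4 are lowest in clone 1 with and highest in clone 4 without ascorbic acid, Rpl39l and Rpl12 are tightly spaced with ascorbic acid, and Rps27 has low clones in both groups.

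At the low end stood Rpl3l and Rps16. Rpl3l, the paralog of Rpl3 known from skeletal and heart muscle, had a mean signal of 91.7 ± 17.5 with ascorbic acid and 78.5 ± 23.1 in the other group (SD, n = 4 each). The Rps16 probe set read 1.90 to 8.40 in all 8 clones. That value describes this 1 probe set and says nothing of the level of the transcript.

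Paralogs were compared with their partners as the log2 ratio of signals within each clone, which no common factor on an array can change. Of 8 pairs listed 5 had both members measured. All 70 ways to assign the clones to groups were enumerated in a two-sided exact permutation test, whose smallest possible p is 0.0286, and p-values are unadjusted. No pair reached 0.05, and in all 5 the groups overlapped. Only the difference of a ratio between groups can be read, not the ratio itself, since the probe sets differ.

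The ratio of Rpl39l to Rpl39 was lower with ascorbic acid by a log2 difference of -0.20 (exact p = 0.171; SD 0.20 with and 0.19 without, n = 4 each). The ratio of Rpl7l1, an Rpl7-like protein, to Rpl7 differed by 0.17 (exact p = 0.0857; SD 0.12 in both groups). That of Rpl22l1 to Rpl22, a pair in which mouse Rpl22 is known to restrain its paralog, differed by 0.10 (exact p = 0.257; SD 0.09 with and 0.11 without). For Rps4l to the X-linked Rps4x the difference was 0.05 (exact p = 0.657; SD 0.13 and 0.21). For Rps27l, a p53 target, to Rps27 it was -0.12 (exact p = 0.914; SD 0.61 and 0.56).

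The partner in 3 of these pairs is a bright gene, and in Rps27l to Rps27 the paralog is. Such a ratio carries the bright genes' course, in part only for Rps4l to Rps4x, where both are bright. The same can hold for Rpl22l1 and Rpl7l1, whose own correlations with that course were 0.85 and 0.61. After quantile normalization the differences of the 3 pairs with a bright partner turned sign. They were -0.015 for Rpl7l1 to Rpl7, -0.047 for Rpl22l1 to Rpl22 and -0.09 for Rps4l to Rps4x. The difference for Rps27l to Rps27 went from -0.12 to -0.018. That for Rpl39l to Rpl39, both dimmer, stayed at -0.21. With probe sets averaged per gene the Rpl7l1 to Rpl7 difference was 0.22 with an exact p of 0.0286, while with the brightest probe sets it missed the threshold. The paralogs alone had log2 differences of -0.0039 ± 0.07 for Rpl7l1, -0.07 ± 0.11 for Rpl22l1, -0.16 ± 0.08 for Rps4l and -0.12 ± 0.08 for Rps27l (SE).

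**Figure D4:**
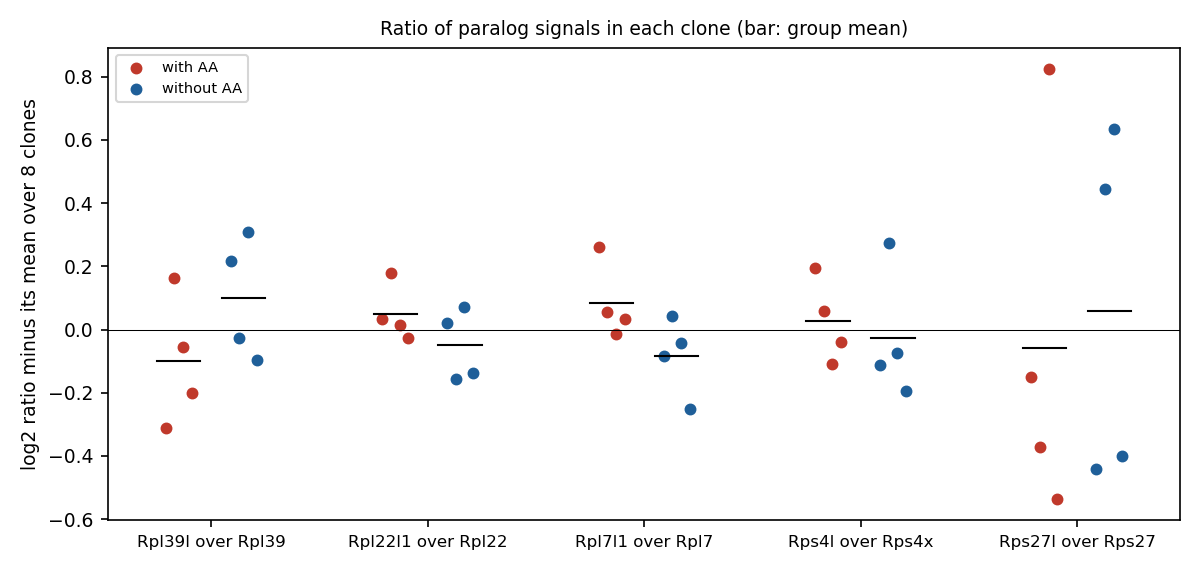
The vertical axis is the log2 ratio of paralog to partner signal in a clone, minus the mean of that ratio over 8 clones, for 5 pairs on the horizontal axis. Red dots are clones with and blue dots clones without ascorbic acid (AA), and bars are group means. The groups overlap in all 5 pairs, and Rps27l over Rps27 has the widest spread.

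Genes that work with the ribosome were counted in the same way. Of 10 tested elongation and associated factors 8 were lower and 2 higher with ascorbic acid, with a median log2 difference of -0.16. Among them Eef2, the translocation factor, had a mean signal of 22787 and a difference of -0.19 ± 0.11, and Tpt1 a mean signal of 23247 and a difference of -0.24 ± 0.13 (SE). After quantile normalization 4 of the 10 were lower, with a median of 0.0065. Fau, whose product is cleaved to a ubiquitin-like part and small subunit protein S30, differed by -0.20 ± 0.12 at a mean signal of 14020. Of 24 initiation factors 19 were lower (median -0.05), with Eif4a2 at -0.16 ± 0.08. After quantile normalization 13 of the 24 were lower, and scaled on other bright genes 8 were (median 0.03).

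Factors that build ribosomes were spread over both directions. Of 106 ribosome biogenesis factors 61 were higher and 45 lower (median 0.0085), and 4, all higher, had an unadjusted limma p under 0.05 (3.77%, against 5.8% of all tested genes, 3.06% higher). With median centring 77 were higher and 29 lower, and scaled on other bright genes 93 and 13, where the median of all tested genes moved to 0.03 and 0.08. Riok2, a kinase of late small subunit maturation, read 1461, 1310, 1293 and 1300 in clones 1 to 4 with ascorbic acid and 1127, 1266, 1194 and 1020 without. The groups did not overlap, as in 2.06% of all tested genes in that direction, and the log2 difference of 0.22 ± 0.08 (SE) did not pass (limma, adjusted p = 0.766). Ddx47 differed by 0.24 ± 0.09 and Fcf1 by 0.17 ± 0.07 (SE). RNA polymerase I subunits and factors were higher in 6 and lower in 6 of 12 (median 0.00029; 10 higher and 2 lower when scaled on other bright genes), with Ubtf, which opens the ribosomal DNA, at -0.12 ± 0.07. Mitochondrial ribosomal proteins, which serve a separate ribosome, were higher in 48 and lower in 28 of 76 (median 0.02; 67 and 9 when scaled on other bright genes), with Mrps28 at 0.17 ± 0.07. None of the genes in these lists passed the limma test over all genes.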

How the data were processed

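The values are signal intensities per probe set on a linear scale, as deposited by the authors. GCOS, Affymetrix's software, is named in the submitters' processing notes, with no version. The deposited values show a mean of 500 on every array after trimming 2% at each end. Of 45101 probe sets 64 array controls were left out, 34945 had 1 gene symbol, 932 several and 9160 none. All 49 members matched RefSeq (GRCm38.p6) symbols by Entrez identifier.

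Tests and fold changes use log2(signal + 16). The dimmest 40% of probe sets by mean signal were dropped. Scaling was kept as deposited, since the array medians of log2(signal + 16) spanned 0.199 and the limit was 0.2, a choice that rests on the added 16. Groups were compared with limma 3.58.1 (lmFit and trended eBayes, R 4.3.3) over 13125 genes, two-sided, with Benjamini-Hochberg adjustment. The script was tested on simulated data. Drawings used matplotlib 3.10.9.

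Named genes are members of paralog pairs, the 8 smallest p, the 4 largest differences, the 3 brightest and 3 dimmest, any with a clone far from the rest, and up to 3 of each other list by p. Rplp0, Rplp2, Rpl37, Rps6, Rpl13a and Rpl41 were added after their values were seen, as were Rps15 and Rps25, each the end of a range. Members and lists were chosen with earlier results of these data known. Alternatives were other scalings, pseudocounts, filters, probe set rules and fits, the clone number as a replicate block, and leaving out each clone. Same-numbered clones did not deviate together (correlations -0.17 to 0.013), and the main fit did not pair them. A small effect shared by same-numbered clones could be missed by these correlations.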

Additional observations from a re-analysis of the deposited data

Results flagged for a closer look

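Of 144 groups of 4 clones, 2 (1.39%) held a clone far from the rest, where chance gives about 5%. No ribosomal protein gene was among them. For Riok2 it was clone 1 with ascorbic acid, at a signal of 1461, where the other 3 clones of its group lay at 1293 to 1310. For Mrps28, of the mitochondrial ribosome, it was clone 4 with ascorbic acid, at 1340, where the other 3 lay at 1467 to 1487.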

How the results depend on the processing

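In the main fit and all 21 alternatives 0 tested members passed the adjusted limma test, with a smallest adjusted p of 0.489 to 0.954 over the alternatives. The replicate block gave 1 member with an unadjusted p under 0.05, as the main fit did, and 0 passed. That count was 2 with quantile normalization or robust eBayes, 3 without _s_at and _x_at probe sets (42 members), 4 with the mean of the probe sets, 8 with array weights, 15 when scaled on other bright genes, and 1 to 33 when 1 clone was left out. The count of lower members was 26 with quantile normalization. The median of the dimmer members was 0.046 when scaled on other bright genes. The range of the clone medians of bright members, 0.56 log2 as deposited, was 0.0094 with quantile normalization and 0.28 when scaled on other bright genes. The ratio of Rpl7l1 to Rpl7 fell under 0.05 with the mean of the probe sets (0.22, unadjusted exact p = 0.0286, the smallest possible).

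Some signs turned. With quantile normalization Rpl22 was at 0.012 and Rpl7 at 0.0027, and the ratios of Rpl22l1, Rpl7l1 and Rps4l to their partners were at -0.047, -0.015 and -0.095. With median centring Rpl7l1 was at 0.030 and Rps27 at 0.028, with the mean of the probe sets Rpl7l1 was at 0.055, and with array weights Rps27 was at 0.011. Scaled on other bright genes, Rpl22l1 was at 0.0090, Rpl39 at 0.014, Rpl7l1 at 0.080 and Rps27 at 0.078. With 1 clone left out the ranges were -0.047 to 0.038 for Rpl7l1, -0.20 to 0.048 for Rpl39, -0.19 to 0.23 for Rps27 and -0.028 to 0.064 for Rpl14. For the ratios they were -0.0031 to 0.15 for Rps4l to Rps4x and -0.41 to 0.074 for Rps27l to Rps27. The cause was not tested. The number of arrays limits the precision.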
